A study of Homo sapiens with 12 samples.

Results

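Metallothioneins are small cysteine-rich proteins that bind zinc, copper and cadmium, and 6 genes of this family were followed together with the zinc sensor *MTF1* and the zinc exporter *SLC30A1*. The 8 genes were chosen by name (*MT1E*, *MT1F*, *MT1G*, *MT1M*, *MT1X*, *MT2A*, *MTF1* and *SLC30A1*), all 8 were found among the 26258 genes of the deposited table, and 6 of them were expressed highly enough to be tested. The cells were HLE, a human hepatocellular carcinoma line, in which siRNA depleted YAP together with TAZ (siY/T) or ATF4 alone (siATF4), beside a control siRNA (siCtrl). Each transfection was kept in the solvent DMSO or treated with Sorafenib (Srf), an inhibitor of several kinases, at 5 µM, the dose in the sample labels, which give no time. The 6 groups held 2 RNA-seq libraries each, 12 in all. Nothing in the labels says that the 2 libraries of a group came from separate cultures, so the p-values measure the spread between these samples, which may be technical. The study's own account names biological replicates, in another number than the 2 deposited, and another Srf dose, and the labels were followed here.

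MTF1 is a zinc-finger transcription factor. When free zinc rises, MTF1 binds short DNA sequences named metal response elements in the promoters of the metallothionein genes and of *SLC30A1*, which codes for the zinc transporter ZnT1 of the plasma membrane. Newly made metallothionein then holds the metal inside the cell and ZnT1 moves it out. Metallothionein genes also respond to glucocorticoids and to oxidative stress, and the liver is one of the tissues in which they are most inducible.

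Total reads on genes were between 41408348 and 53619732 per library, and the values are CPM, a gene's share of them scaled to 1000000, with 1 read worth 0.0186 to 0.0241 CPM. Each siRNA lowered its own target in all of its libraries. *YAP1* was at 46.6 to 57.7 CPM with siY/T against 236 to 280 CPM in the other libraries, *WWTR1* (the gene of TAZ) at 49.3 to 68.6 CPM against 104 to 173 CPM, and *ATF4* at 84.5 to 101 CPM with siATF4 against 197 to 492 CPM. *WWTR1* was itself lower in siATF4 than in siCtrl cells in DMSO (106 ± 2.08 against 171 ± 2.36 CPM, SD, n = 2), so siATF4 DMSO cells were not at control level for both siY/T targets. *ATF4* in turn was lower in siY/T than in siCtrl cells with Srf, at 315 ± 2.33 against 488 ± 5.68 CPM (log2 -0.63, adjusted p = 1.84e-07, limma), and Srf raised it 1.96-fold in siCtrl cells. Hepatocyte markers were absent or nearly so: *ALB*, *AFP*, *APOA1*, *APOB*, *TTR* and *HNF4A* stayed at or below 0.117 CPM and *SERPINA1* at or below 2.32 CPM. *KRT8*, *KRT18* and *VIM* lay between 312 and 2916 CPM. *EPCAM*, like *KRT8* and *KRT18* an epithelial marker, lay only between 0.150 and 0.701 CPM and was not tested. Of the markers of other cell types, *PTPRC*, *PECAM1* and *CDH5* stayed at or below 0.150 CPM and *CD68*, a lysosomal protein gene that is not limited to leukocytes, lay between 19.8 and 75.0 CPM. Some of these markers changed with the siRNAs in DMSO. With siY/T, *KRT8* fell by 1.74, *KRT18* fell by 1.65 and *SERPINA1* rose by 1.84 on the log2 scale. With siATF4, *KRT8* fell by 0.94 and *CD68* rose by 1.82. *SERPINA1* reached 1 CPM in 4 libraries, all of them siY/T, so it was tested through the groups in which it was high. It had 6 and 12 reads in siCtrl DMSO, and its changes are given as descriptions only. With Srf, *KRT8* and *KRT18* fell by 1.34 and 1.16 with siY/T, and *CD68* rose 2.64-fold with siATF4. *KRT8* was also lower with siATF4 under Srf, at 1639 ± 89.7 against 2508 ± 71.4 CPM in siCtrl cells (SD, n = 2). *KRT18* was higher there, at 1052 ± 52.6 against 721 ± 19.8 CPM. Under Srf *SERPINA1* rose by 0.87 with siY/T and fell by 0.73 with siATF4. The part of these marker changes in the results on *MT2A* and *MT1E* was not tested. The 2 libraries of siY/T DMSO differed most from each other, with a chi-square of 20.7 per gene against 2.98 in siCtrl DMSO.

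The 6 metallothionein genes lie in 1 cluster on chromosome 16 (GRCh37, chr16:56642496-56718108), each with a few short exons over which the reads were counted. *MT2A* is at chr16:56642496-56643409, *MT1E* at chr16:56659387-56661024, *MT1M* at chr16:56666571-56667893, *MT1F* at chr16:56691643-56694610 and *MT1X* at chr16:56716382-56718108, all on the plus strand, and *MT1G* is at chr16:56700642-56701977 on the minus strand. *MTF1* (chr1:38275246-38325264) and *SLC30A1* (chr1:211744910-211752503) are both on the minus strand of chromosome 1. Metallothionein genes resemble each other, and the authors kept only uniquely mapped reads. A 75-base window of the main transcript was taken as unique if it had no exact match in GRCh37 outside the gene. It also had to be absent from transcripts of the other members and metallothionein genes. Unique windows were 100% of all windows for *MT2A*, *MT1F* and *SLC30A1*, 99.2% for *MTF1*, 98.8% for *MT1M*, 93.5% for *MT1G*, 91.8% for *MT1X* and 88.1% for *MT1E*. The levels of *MT1E*, *MT1G* and *MT1X* may therefore leave out reads from the shared parts, and their levels are the least certain of the family.

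The promoters of *MT2A*, *MT1X*, *SLC30A1* and *MTF1* are shown because only these 4 of the 8 genes had an entry (RefSeq, GRCh38.p14). *MTF1* encodes the sensor and the others are textbook targets of it. No promoter of *MT1E*, *MT1F*, *MT1G* or *MT1M* was searched. Each promoter shown runs from 250 bases before to 50 bases after the gene start, in the direction of the gene. Capitals mark matches to the metal response element core, searched as TGCACNC and TGCGCNC on both strands, a match on the opposite strand being read as its reverse complement.
MT2A promoter, chr16:56608334-56608633, plus strand: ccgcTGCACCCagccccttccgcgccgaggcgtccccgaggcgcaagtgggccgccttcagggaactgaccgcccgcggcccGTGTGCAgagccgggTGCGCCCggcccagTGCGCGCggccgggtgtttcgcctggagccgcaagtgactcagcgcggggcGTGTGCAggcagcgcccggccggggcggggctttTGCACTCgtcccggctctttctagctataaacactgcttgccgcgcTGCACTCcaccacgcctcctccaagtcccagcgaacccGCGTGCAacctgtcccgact
MT1X promoter, chr16:56682220-56682519, plus strand: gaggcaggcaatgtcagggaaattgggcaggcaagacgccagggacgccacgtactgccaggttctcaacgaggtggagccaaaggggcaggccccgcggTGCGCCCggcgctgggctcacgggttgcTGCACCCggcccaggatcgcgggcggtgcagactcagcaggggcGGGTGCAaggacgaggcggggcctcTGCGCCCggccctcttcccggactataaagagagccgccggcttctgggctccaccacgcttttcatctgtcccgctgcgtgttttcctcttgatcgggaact
SLC30A1 promoter, chr1:211579112-211579411, minus strand: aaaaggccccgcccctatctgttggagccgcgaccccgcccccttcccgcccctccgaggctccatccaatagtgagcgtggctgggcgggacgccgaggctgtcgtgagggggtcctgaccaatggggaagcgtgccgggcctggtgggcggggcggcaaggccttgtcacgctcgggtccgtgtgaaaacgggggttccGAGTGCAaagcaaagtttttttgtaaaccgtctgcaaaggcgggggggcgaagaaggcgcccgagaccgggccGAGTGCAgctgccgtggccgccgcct
MTF1 promoter, chr1:37859543-37859842, minus strand: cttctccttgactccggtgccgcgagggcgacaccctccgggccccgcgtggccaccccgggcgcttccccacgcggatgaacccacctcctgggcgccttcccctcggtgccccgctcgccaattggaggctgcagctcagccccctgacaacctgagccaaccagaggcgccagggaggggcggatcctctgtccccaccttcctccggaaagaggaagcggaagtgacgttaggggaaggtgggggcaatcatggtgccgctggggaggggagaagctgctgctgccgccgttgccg

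The *MT2A* window held 8 matches, 5 on the strand of the gene and 3 on the other, with first bases from position -246 to position 31, counted from the gene start (1 for the first transcribed base and -1 for the base before it). *MT1X* held 4, at -150, -122, -78 and -53, and *SLC30A1* held 2, at -49 and 25. *MTF1* had no match. Of 35116 promoters of the same length, 29.6% held at least 1 match, 8.6% at least 2, 0.601% at least 4 and 0.0199% at least 8. The cores TGATGNAA, part of the composite element that ATF4 binds with a C/EBP partner, and GGAATG, the core bound by the TEAD partners of YAP and TAZ, were found in 1270 and 4928 of the 35116 promoters and in no window of these 4 genes. A match is a run of letters and no measured binding, and the lack of one concerns only these windows.

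**Figure D1:**
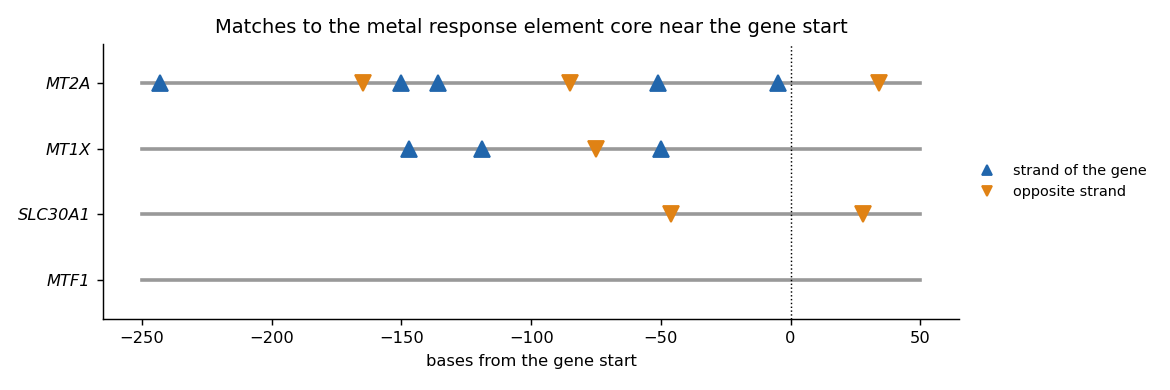
Positions of the metal response element core in the promoters of 4 genes, with the distance from the gene start in bases on the x axis. Each triangle is 1 match, pointing up on the strand of the gene and down on the opposite strand, with 8 in MT2A, 4 in MT1X, 2 in SLC30A1 and none in MTF1.

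Levels between genes were compared per kilobase of the main transcript. In siCtrl DMSO cells *MT2A* stood at 828 ± 21.9 CPM per kilobase (SD, n = 2), *MT1E* at 170 ± 2.17, *MT1X* at 30.2 ± 0.590, *MTF1* at 4.45 ± 0.0524, *SLC30A1* at 3.19 ± 0.127 and *MT1F* at 1.91 ± 0.0998. The ranges of neighbouring genes in this order did not overlap. *MT1G* had 1 to 6 reads and *MT1M* 0 to 9 reads per library, too few to judge any difference, and neither was tested. The single library without an *MT1M* read (siY/T DMSO, replicate 2) allows up to 0.0724 CPM, which covers counting error only. Genes other than *MT2A*, *MT1E* and *MT1X* made up at most 0.883% of the metallothionein CPM of any library. Of the 11 other metallothionein genes and pseudogenes, 10 were in the table, the highest value of any was 0.471 CPM, and 2 were at 0 in all 12 libraries.

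A gene was called changed at an adjusted p under 0.05 (limma, over 13515 genes) and a log2 fold change of at least 0.58 in either direction, with fold changes on the scale of log2(CPM + 0.5). With only 2 libraries on each side, between 71.7% and 89.2% of all genes tested had groups that did not overlap, depending on the comparison, so that separation of the libraries is common and was not used as a call. Because the libraries are bulk RNA, a change in RNA per cell and a change in the mix of cells cannot be told apart.

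*MT2A*, the most abundant metallothionein, differed with both siRNAs and with the drug. Its CPM were 338 and 326 in siCtrl DMSO, 188 and 175 in siY/T DMSO, and 593 and 545 in siATF4 DMSO cells. With Srf they were 248.6 and 265.5 in siCtrl, 185 and 181 in siY/T, and 252 and 297 in siATF4 cells. Both siATF4 DMSO libraries were above all others and the 4 siY/T libraries below all others, whereas siCtrl Srf and siATF4 Srf overlapped. Ordered by mean level the groups ran from siY/T DMSO (182 ± 9.04 CPM) and siY/T Srf (183 ± 3.06), which overlapped, through siCtrl Srf (257 ± 11.9) and siATF4 Srf (274 ± 31.9) to siCtrl DMSO (332 ± 8.78) and siATF4 DMSO (569 ± 34.1).

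*MT1E*, the second most abundant, was lower in siY/T than in siCtrl cells in both treatments. Its CPM were 128 and 126 in siCtrl DMSO, 82.3 and 71.7 in siY/T DMSO, and 175 and 170 in siATF4 DMSO cells. With Srf they were 166 and 176 in siCtrl, 102 and 103 in siY/T, and 165 and 185 in siATF4 cells. The 4 siY/T libraries were again the lowest, and siATF4 DMSO, siCtrl Srf and siATF4 Srf overlapped at the top.

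*MT1X* moved within a narrow band and *MT1F* was near the limit of the filter. *MT1X* was at 12.36 and 12.03 CPM in siCtrl DMSO, 13.99 and 12.03 in siY/T DMSO, 17.0 and 16.9 in siATF4 DMSO, 16.8 and 17.0 in siCtrl Srf, 15.1 and 15.1 in siY/T Srf, and 14.3 and 14.6 in siATF4 Srf cells. *MT1F* was at 0.783 and 0.843 CPM in siCtrl DMSO, 1.17 and 0.773 in siY/T DMSO, 0.664 and 0.475 in siATF4 DMSO, 2.10 and 2.54 in siCtrl Srf, 1.88 and 1.68 in siY/T Srf, and 0.986 and 1.01 in siATF4 Srf cells. *MT1X* was lowest in siCtrl DMSO and in replicate 2 of siY/T DMSO, and *MT1F* was highest in siCtrl Srf. *MT1F* rested on 24 to 125 reads per library and reached 1 CPM in 6 libraries, of which 5 were Srf libraries, so it was tested through the groups in which it was high. Its differences are therefore given below as descriptions, mostly with the SE and adjusted p of a fit with no filter on low values. Its calls enter the counts of genes called below but are not counted as support.

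*MTF1*, the sensor, and *SLC30A1*, the exporter, kept to 30.5 to 45.0 and 18.2 to 25.2 CPM over the 12 libraries. *MTF1* was at 35.6 and 35.0 CPM in siCtrl DMSO, 44.9 and 42.3 in siY/T DMSO, 38.2 and 38.7 in siATF4 DMSO, 34.7 and 33.5 in siCtrl Srf, 45.01 and 40.35 in siY/T Srf, and 32.5 and 30.5 in siATF4 Srf cells. *SLC30A1* was at 19.3 and 18.2 CPM in siCtrl DMSO, 24.1 and 24.6 in siY/T DMSO, 19.1 and 20.6 in siATF4 DMSO, 21.8 and 21.1 in siCtrl Srf, 25.2 and 23.4 in siY/T Srf, and 20.6 and 19.4 in siATF4 Srf cells. Both genes were highest in the 4 siY/T libraries, the groups in which *MT2A* and *MT1E* were lowest.

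**Figure D2:**
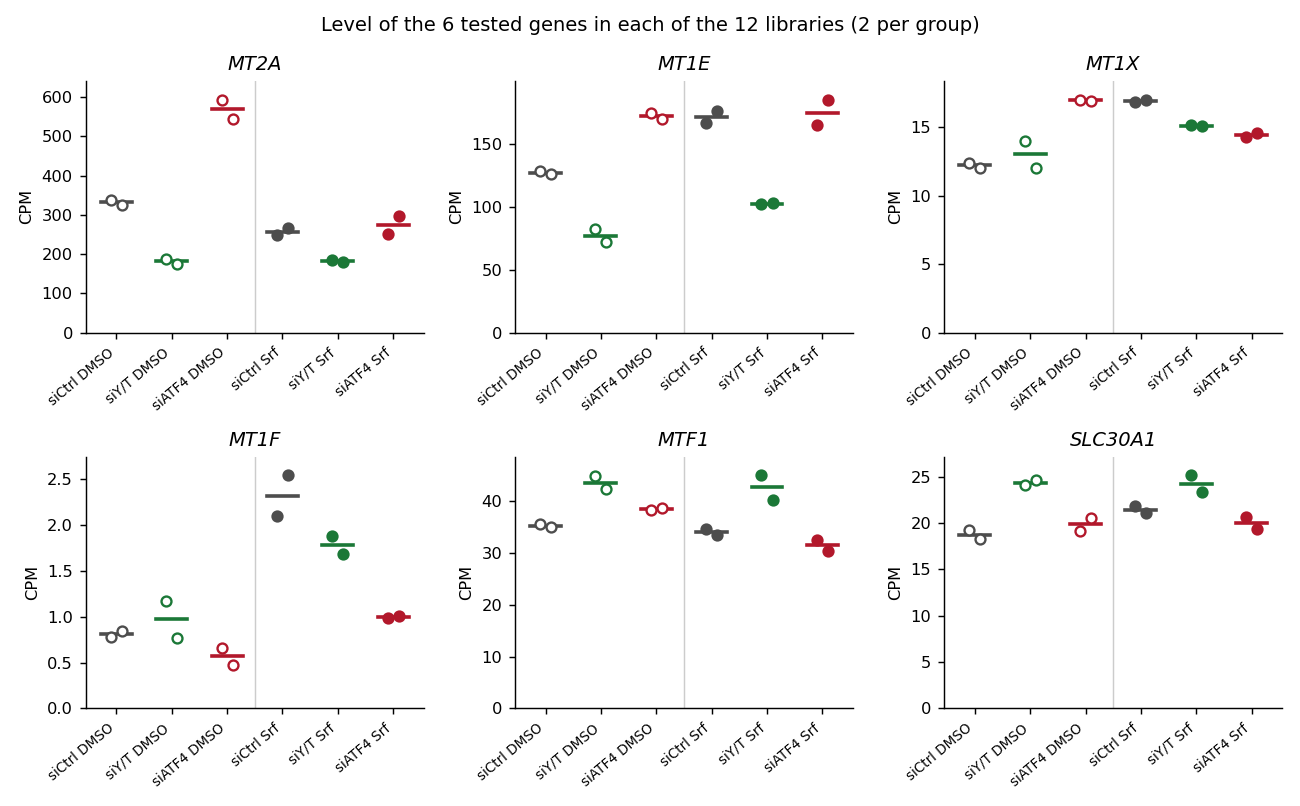
CPM of the 6 tested genes (y axis, starting at 0) in the 6 groups, with 1 point per library, open for DMSO and filled for Srf, and a bar at the group mean. MT2A and MT1E are lowest in the siY/T groups, where MTF1 and SLC30A1 are highest, and MT2A peaks at 593 and 545 CPM in siATF4 DMSO.

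Depletion of YAP and TAZ in DMSO lowered the 2 most abundant metallothioneins and left the sensor and the exporter slightly higher. *MT2A* fell by 0.87 on the log2 scale (SE 0.0696, adjusted p = 3.42e-07), a level of 0.548 times that of siCtrl cells, and *MT1E* fell by 0.72 (SE 0.0656, adjusted p = 1.01e-06), or 0.607 times. *SLC30A1* was 1.29 times as high (log2 0.37, SE 0.0651, adjusted p = 3.11e-04) and *MTF1* 1.23 times as high (log2 0.30, SE 0.0607, adjusted p = 8.51e-04), both short of the fold threshold. *MT1X* differed by 0.09 (95% interval -0.07 to 0.24) and *MT1F* by 0.15 (-0.17 to 0.47), so no fall was measured in these less abundant family members. The 2 of 6 tested genes called, both lower, stand beside 3.61% of all genes tested called lower and 11.0% called higher.

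With Srf, *MT1E* was again lower in siY/T than in siCtrl cells. *MT1E* fell by 0.74 (SE 0.0656, adjusted p = 1.32e-06), to 0.599 times the siCtrl level. *MT2A* was 0.714 times as high (log2 -0.49, SE 0.0696, adjusted p = 8.34e-05), short of the fold threshold. *MTF1* was higher by 0.32 (adjusted p = 8.39e-04) and *SLC30A1* by 0.17 (adjusted p = 0.0421), also short of it. *MT1X* differed by -0.16 (adjusted p = 0.0883) and *MT1F* by -0.30 (adjusted p = 0.156 with no filter). In this comparison 1 of 6 tested genes was called, lower, where 3.84% of all genes tested were called lower and 6.11% higher.

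Depletion of ATF4 in DMSO raised *MT2A*, and no other member was called. *MT2A* rose by 0.78 (SE 0.0696, adjusted p = 4.80e-07), to 1.71 times the siCtrl level. *MT1X* was higher by 0.46 (adjusted p = 8.18e-05) and *MT1E* by 0.44 (adjusted p = 5.41e-05), both short of the fold threshold, and *MT1F* differed by -0.30 (adjusted p = 0.131 with no filter). *MTF1* differed by 0.12 (95% interval -0.01 to 0.25) and *SLC30A1* by 0.08 (-0.06 to 0.22). The 1 of 6 genes called stands beside 8.56% of all genes tested called higher and 14.1% called lower.

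With Srf, no higher *MT2A* level was measured in siATF4 cells. *MT2A* differed from siCtrl by 0.09 (95% interval -0.06 to 0.24) and *MT1E* by 0.03 (-0.11 to 0.17). *MT1F* was 0.532 times the siCtrl level (log2 -0.91, SE 0.146, adjusted p = 5.39e-04 with no filter, limma), and *MT1X* was lower by 0.22 (adjusted p = 0.0138), short of the fold threshold. *MTF1* differed by -0.12 (adjusted p = 0.103) and *SLC30A1* by -0.10 (adjusted p = 0.192). Here 1 of 6 genes was called, *MT1F*, where 18.7% of all genes tested were called lower and 10.3% higher. The *MT1F* call rests on 47 to 125 reads per library and was lost with quantile normalization, at -0.56.

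Srf in siCtrl cells did not move the metallothioneins in 1 direction. *MT1F* was 2.14 times its DMSO level (log2 1.10, SE 0.146, adjusted p = 2.53e-04 with no filter, limma). *MT1X* was 1.37 times (adjusted p = 1.13e-04) and *MT1E* 1.35 times as high (adjusted p = 8.24e-05), whereas *MT2A* was 0.775 times as high (adjusted p = 4.70e-04), each short of the fold threshold. *SLC30A1* was higher by 0.19 (adjusted p = 0.0227), short of the threshold, and *MTF1* differed by -0.05 (95% interval -0.18 to 0.08). The 1 gene called, *MT1F*, stands beside 12.3% of all genes tested called higher and 5.15% called lower.

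In siY/T cells no effect of Srf on *MT2A* was detected, with a difference of 0.01 (95% interval -0.14 to 0.16). *MT1F* was higher by 0.65 (SE 0.146, adjusted p = 7.93e-03 with no filter, limma), and *MT1E* and *MT1X* were higher by 0.41 (adjusted p = 1.91e-04) and 0.21 (adjusted p = 0.0250), short of the fold threshold. *MTF1* differed by -0.03 (-0.16 to 0.10) and *SLC30A1* by -0.01 (-0.15 to 0.13). In this comparison 1 of 6 genes was called, *MT1F*, where 5.83% of all genes tested were called higher and 4.14% lower. Without replicate 2 of siY/T DMSO, the library in which *MT1F* was lower of the pair, the *MT1F* difference was 0.45 and no longer called.

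In siATF4 cells Srf lowered *MT2A* by 1.06 (SE 0.0696, adjusted p = 1.27e-07), to 0.481 times its DMSO level. *MT1E* differed by 0.02 (95% interval -0.12 to 0.16). *MTF1* was lower by 0.28 (adjusted p = 1.76e-03), *MT1X* lower by 0.23 (adjusted p = 0.0189) and *MT1F* higher by 0.49 (adjusted p = 0.0308 with no filter), all short of the fold threshold, and *SLC30A1* differed by 0.01 (-0.13 to 0.15). The 1 gene called stands beside 2.94% of all genes tested called lower and 5.68% called higher. Without replicate 1 of siATF4 DMSO the *MT1F* difference was 0.62 and would be called as well.

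**Figure D3:**
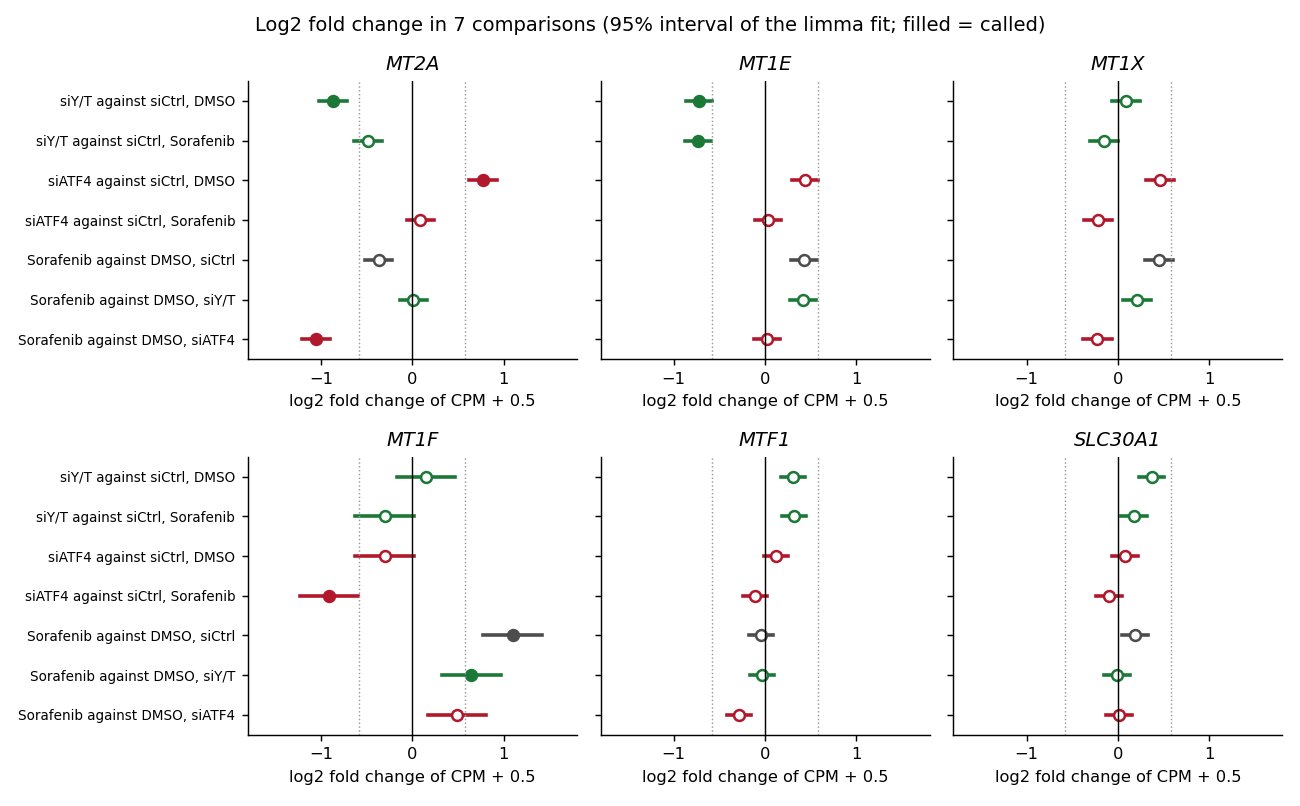
Log2 fold change of CPM + 0.5 (x axis) of the 6 tested genes in 7 comparisons, with bars for the 95% interval, filled points for called changes and dotted lines at the threshold of 0.58. MT2A lies furthest from 0 with siATF4 in DMSO (0.78), siY/T in DMSO (-0.87) and Srf in siATF4 cells (-1.06), and all points of MTF1 and SLC30A1 lie inside the dotted lines.

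Both depletions were also set against each other. In DMSO, *MT2A* was 3.12 times (log2 1.64, SE 0.0696, adjusted p = 1.38e-10) and *MT1E* 2.24 times as high (log2 1.16, SE 0.0656, adjusted p = 2.27e-09) in siATF4 as in siY/T cells. These were 2 of 6 genes called, where 35.7% of all genes tested were called in either direction. *MT1F* was lower by 0.45 (adjusted p = 0.0252 with no filter), and without replicate 2 of siY/T DMSO or without replicate 1 of siATF4 DMSO it was called, at -0.65 and -0.58.

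With Srf, *MT1E* was 1.70 times as high (log2 0.77, SE 0.0656, adjusted p = 1.37e-07) and *MT1F* lower by 0.61 (SE 0.146, adjusted p = 5.33e-03 with no filter, limma) in siATF4 as in siY/T cells, 2 of 6 genes called beside 38.5% of all genes tested. *MT2A* was higher by 0.57 (SE 0.0696, adjusted p = 4.53e-06), just short of the fold threshold, and without replicate 1 of siY/T Srf or of siATF4 Srf it passed it, at 0.59 and 0.69. Without replicate 1 of siY/T Srf the *MT1F* difference was -0.55 and not called. *MTF1* was lower in siATF4 than in siY/T cells by 0.18 in DMSO (adjusted p = 0.0159) and by 0.43 with Srf (adjusted p = 1.93e-05), and *SLC30A1* by 0.29 (adjusted p = 1.15e-03) and 0.27 (adjusted p = 1.83e-03), none past the fold threshold. All comparisons with siCtrl share the siCtrl libraries, and those of Srf and of the siRNAs share further ones, so they are not independent of each other.

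*MTF1* and *SLC30A1* were called in 0 of the 9 pairwise comparisons by limma, edgeR or DESeq2, although each had an unadjusted and an adjusted p under 0.05 in 5 of them. *MT1X* was likewise called in 0 of 9 by all 3 tools, with an unadjusted p under 0.05 in 7 comparisons and an adjusted one in 6. *MT1E* was called in 4 of 9 by all 3 tools. *MT2A* was called in 4 by limma and in 5 by edgeR and DESeq2, and *MT1F* in 4 by limma and DESeq2 and in 6 by edgeR.

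Whether the Srf effect itself depended on the siRNA was tested as a difference of differences, called at an adjusted p under 0.05 alone. Between siATF4 and siCtrl cells, 5 of the 6 tested genes were called, among them *MT1F*, which is given as a description only. All 5 had the lower Srf effect in siATF4 cells. Of all genes tested 41.1% were called in either direction, and their share by direction was not counted. With no filter on low values 3 genes were called, *MT2A*, *MT1X* and *MT1E*. *MT2A* differed by -0.69 (SE 0.0984, adjusted p = 1.51e-04), *MT1X* by -0.68 (SE 0.101, adjusted p = 2.12e-04), *MT1F* by -0.61 (SE 0.210, adjusted p = 0.0339, and 0.0611 with no filter), *MT1E* by -0.41 (SE 0.0927, adjusted p = 3.55e-03) and *MTF1* by -0.24 (SE 0.0858, adjusted p = 0.0416, and 0.0612 with no filter). *SLC30A1* differed by -0.18 (95% interval -0.38 to 0.02). For *MT1X* the sign of the effect turned, from 0.45 in siCtrl to -0.23 in siATF4 cells. The calls of *MT1F* and *MTF1* were the less stable. Leaving out any of the 8 libraries of this comparison lost at least 1 of them, that of *MT1F* in 6 cases and that of *MTF1* in 7. Without replicate 1 or 2 of siCtrl DMSO, replicate 1 of siATF4 DMSO, replicate 2 of siCtrl Srf or replicate 2 of siATF4 Srf both were lost and 3 genes were called, and in the other 3 cases 4 were. Where the call was lost by leaving out 1 library, *MT1F* lay between -0.64 and -0.48 and *MTF1* between -0.26 and -0.19.

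Between siY/T and siCtrl cells, 1 of 6 genes was called, where 22.0% of all genes tested were called in either direction. *MT2A* differed by 0.38 (SE 0.0984, adjusted p = 0.0162), that is, its lower level with Srf in siCtrl cells was not measured in siY/T cells. *MT1E* differed by -0.02 (95% interval -0.22 to 0.18), *MTF1* by 0.02 (-0.17 to 0.20), *MT1X* by -0.24 (adjusted p = 0.105), *MT1F* by -0.45 (adjusted p = 0.200 with no filter) and *SLC30A1* by -0.20 (adjusted p = 0.145). The *MT2A* call was lost without replicate 1 of siCtrl DMSO (0.35, adjusted p = 0.0622), of siCtrl Srf (0.33, adjusted p = 0.0673) or of siY/T Srf (0.36, adjusted p = 0.0567). Without replicate 2 of siY/T DMSO 3 genes were called, *MT1F* at -0.65 and *MT1X* at -0.35 besides *MT2A*.

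**Figure D4:**
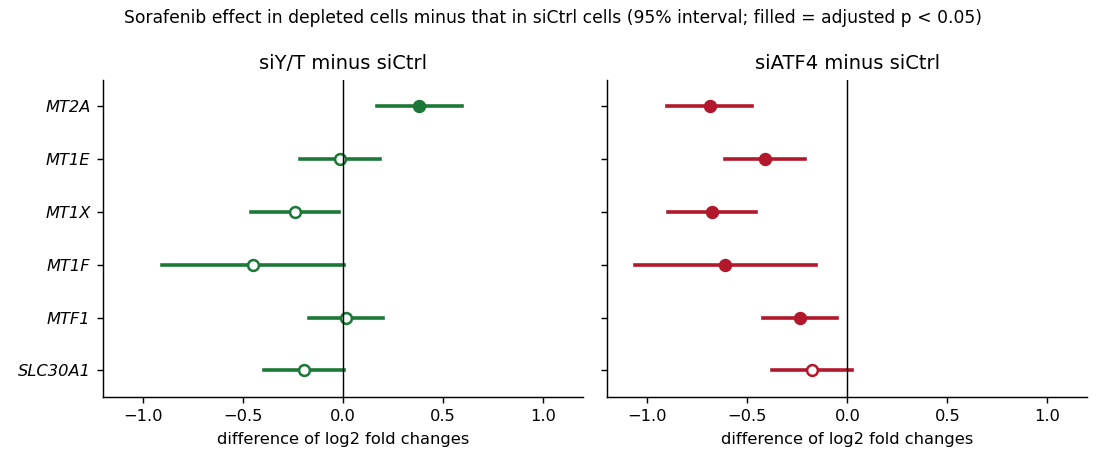
Srf effect in siY/T cells (left) and siATF4 cells (right) minus that in siCtrl cells, as a difference of log2 fold changes on the x axis, with the 95% interval and filled points at an adjusted p under 0.05. For siATF4 all 6 points lie below 0 and 5 are called, from -0.24 for MTF1 to -0.69 for MT2A, and for siY/T the called gene is MT2A at 0.38. MT1F, among the 5, is given as a description only.

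Summed over the 6 metallothionein genes, the CPM were 479 and 465 in siCtrl DMSO, 286 and 260 in siY/T DMSO, and 786 and 732 in siATF4 DMSO cells. With Srf they were 434 and 461 in siCtrl, 305 and 301 in siY/T, and 432 and 497 in siATF4 cells. The group means ran from 273 ± 18.3 to 759 ± 37.6 CPM (SD, n = 2) among the DMSO groups and from 303 ± 2.62 to 465 ± 46.6 CPM among the Srf groups. As ratios of the group means, the total was 0.578 times siCtrl with siY/T and 1.61 times with siATF4 in DMSO, and 0.676 and 1.04 times with Srf. Srf against DMSO gave 0.948 in siCtrl, 1.11 in siY/T and 0.612 in siATF4 cells. The sum was given no test.

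The composition of the sum moved with Srf in every transfection. *MT2A* made up 70.5% and 70.1% of it in siCtrl DMSO, 65.9% and 67.5% in siY/T DMSO, and 75.5% and 74.4% in siATF4 DMSO cells. With Srf its share was 57.3% and 57.5% in siCtrl, 60.9% and 60.2% in siY/T, and 58.3% and 59.6% in siATF4 cells, so all 6 Srf libraries were below all 6 DMSO libraries. The ratio of *MT2A* to *MT1E* CPM, which does not depend on the library total, went from 2.64 and 2.59 to 1.496 and 1.506 in siCtrl, from 2.29 and 2.45 to 1.82 and 1.76 in siY/T, and from 3.39 and 3.21 to 1.53 and 1.60 in siATF4 cells. The 3 DMSO groups did not overlap in this ratio, nor did the 3 Srf groups. Since 11.9% of the windows of *MT1E* are shared with other sequence, the ratio compares libraries and does not give the true proportion.

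**Figure D5:**
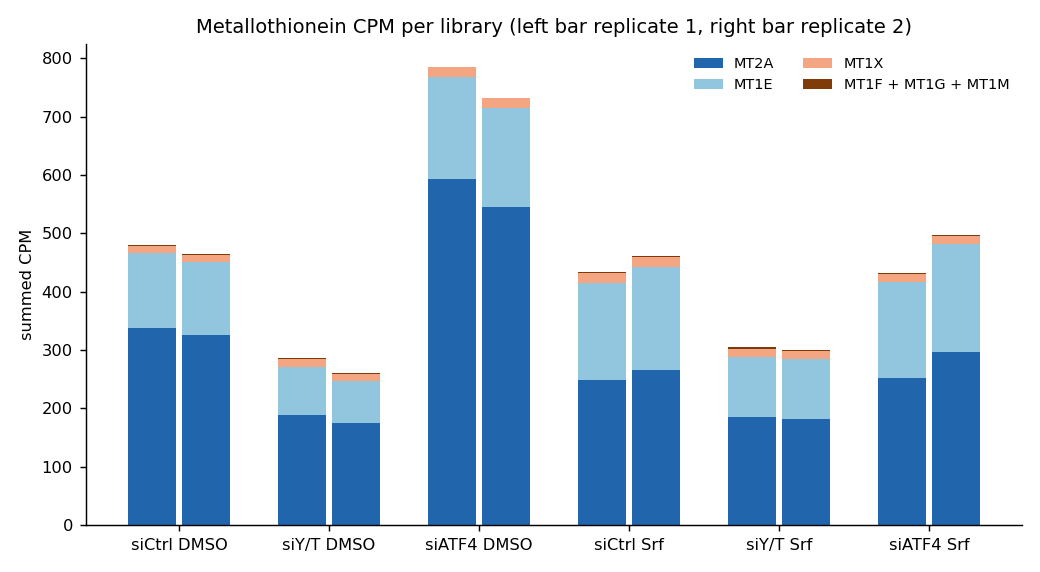
Summed CPM (y axis, starting at 0) of the 6 metallothionein genes in each library, split by gene, with replicate 1 on the left and replicate 2 on the right of each group. The tallest bars, siATF4 DMSO, reach 786 and 732 CPM, the siY/T DMSO bars reach 286 and 260 CPM, and MT2A takes a smaller share of each Srf bar than of the DMSO bars.

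In the pairwise comparisons with siCtrl or DMSO, at most 1 gene of each other list of zinc transport was called. Of the 10 other ZnT exporters, which move zinc out of the cytosol into organelles or out of the cell, 6 were tested, and *SLC30A8*, a vesicle zinc transporter best known from insulin granules, rose with siATF4 in DMSO by 0.62 (SE 0.0754, adjusted p = 7.76e-06), from 14.9 ± 0.643 to 23.2 ± 1.59 CPM. The median over these 6 was 0.19, beside -0.0013 over all genes tested in that comparison, of which 8.56% were called higher. Of the 14 ZIP importers, which bring zinc into the cytosol, 10 were tested. With siY/T in DMSO 1 of the 10 was called, higher, beside 11.0% of all genes tested called higher. The median of these importers was 0.17, beside 0.07 over all genes tested. *SLC39A13* rose with siY/T in DMSO by 0.63 (adjusted p = 1.49e-06), from 40.8 ± 0.748 to 63.3 ± 3.35 CPM, and fell with siATF4 under Srf by 0.59 (adjusted p = 1.17e-06), 1 of 10 in each case. The fall stands beside 18.7% of all genes tested called lower. *SLC39A11* rose with Srf in siCtrl cells by 0.64 (adjusted p = 2.70e-06) and in siY/T cells by 0.87 (adjusted p = 3.44e-07), again 1 of 10 each, beside 12.3% and 5.83% of all genes tested called higher. *SLC39A14*, an importer of zinc and iron that is named here after its values were seen, lay at 156 to 315 CPM and was higher in siATF4 than in siY/T cells by 0.92 in DMSO (adjusted p = 5.16e-09) and by 0.66 with Srf (adjusted p = 1.39e-07). In the differences of Srf effects, where an adjusted p under 0.05 is the only condition, more were called. Between siATF4 and siCtrl cells these were 5 of the 10 importers, 3 with a higher Srf effect in siATF4 cells (*SLC39A6*, *SLC39A8* and *SLC39A10*) and 2 with a lower one (*SLC39A1* and *SLC39A13*), and 2 of the 6 exporters, *SLC30A6* higher and *SLC30A8* lower, beside 41.1% of all genes tested. The differences ran from -0.56 for *SLC39A13* to 0.62 for *SLC39A8*. Between siY/T and siCtrl cells 2 of the 10 importers were called, *SLC39A10* at 0.44 and *SLC39A13* at -0.31, beside 22.0% of all genes tested. Those of these genes not given above are named after their values were seen.

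Copper shares metallothionein as a store, and all 11 genes of copper handling were tested. *ATP7B* and *ATP7A*, the copper-exporting ATPases, moved in opposite directions with siY/T, 1 of 11 called each way in DMSO and again with Srf. Of all genes tested 3.61% were called lower and 11.0% higher in DMSO, and 3.84% and 6.11% with Srf. In DMSO *ATP7B* fell by 1.78 (SE 0.0965, adjusted p = 1.38e-08), from 23.5 and 25.3 to 7.43 and 6.13 CPM, and *ATP7A* rose by 0.99 (adjusted p = 3.02e-06), from 30.6 and 33.5 to 56.6 and 73.1 CPM. With Srf *ATP7B* fell by 1.03 and *ATP7A* rose by 1.02. With siATF4 under Srf, *SOD1*, the copper and zinc superoxide dismutase, fell by 0.81 (adjusted p = 4.28e-09), *ATP7B* rose by 0.87 and *SCO1*, a copper chaperone of cytochrome oxidase, rose by 0.69. In DMSO *SOD1* fell by 0.74 with siATF4, and Srf in siATF4 cells raised *ATP7B* by 0.63. The medians over the 11 genes were 0.08 with siY/T and -0.11 with siATF4 in DMSO, and 0.05 and 0.27 with Srf, beside 0.07, -0.0013, 0.05 and -0.01 over all genes tested.

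Of 8 other stress genes that cadmium or zinc is known to induce, 4 fell with siY/T in DMSO and 4 with Srf, beside 3.61% and 3.84% of all genes tested called lower. Their direction with siATF4 was mixed. In DMSO 1 was called each way, beside 14.1% of all genes tested called lower and 8.56% called higher. With Srf 3 were called lower and 2 higher, beside 18.7% and 10.3% of all genes tested. *HMOX1*, the haem-degrading oxygenase, fell with siY/T by 0.69 in DMSO and 0.83 with Srf, and with siATF4 rose by 2.11 in DMSO (SE 0.0944, adjusted p = 7.03e-10), from 98.5 and 92.4 to 440 and 387 CPM, and by 0.65 with Srf. With Srf in siATF4 cells *HMOX1* fell by 1.498 (adjusted p = 8.86e-08), and the Srf effect differed from that in siCtrl cells by -1.46 (adjusted p = 5.65e-06). In that difference 7 of the 8 genes were called, 4 lower and 3 higher, beside 41.1% of all genes tested in either direction. *SLC7A11* differed by -1.26. The 3 higher ones, *DNAJB1* (0.36), *GCLC* (0.26) and *TXNRD1* (0.23), are named after their values were seen. Between siY/T and siCtrl cells 0 of the 8 were called, beside 22.0% of all genes tested. *SLC7A11*, the cystine transporter subunit, fell with siY/T by 1.49 in DMSO and 1.67 with Srf. It fell by 0.97 with siATF4 in DMSO and fell by 2.23 with siATF4 under Srf, while Srf raised it by 1.48 in siCtrl and 1.31 in siY/T cells. *HSPA1A* and *HSPA1B*, near-identical genes of the inducible chaperone HSP70 whose reads cannot be fully told apart, fell with siATF4 under Srf by 0.92 and 0.90, and Srf in siATF4 cells lowered them by 0.72 and 0.78. *GCLM*, of glutathione synthesis, and *TXNRD1*, a thioredoxin reductase, made up the rest of the genes lower with siY/T, and *GCLM* rose with siATF4 under Srf by 0.68, both named after their values were seen. The medians over the 8 genes were -0.43 with siY/T and -0.42 with siATF4 in DMSO and -0.29 and -0.19 with Srf, beside 0.07, -0.0013, 0.05 and -0.01 over all genes tested.

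Across the 12 libraries, the profiles of a few other genes ran close to those of single members, among 11147 genes that averaged 5 CPM or more. These are descriptions over 6 groups of 2 libraries that share transfection and treatment. For *MT2A* the closest were *P3H2* (Pearson r = 0.977), *EIF4A1* (0.964) and *ZMIZ2* (0.962), and for *MT1E* they were *SNHG12* (0.992), *RAB3IL1* (0.977) and *SBNO2* (0.972). For *MT1X* they were *PEMT* (0.941), *MBD6* (0.930) and *CPLANE2* (0.916). For *SLC30A1* they were *RERG* (0.956), *C6orf89* (0.950) and *USP11* (0.949), and for *MTF1* they were *C1GALT1C1* (0.966), *RAB14* (0.958) and *CTDSP1* (0.956). No gene was named for more than 1 member of these 5. Members were left out of this search, and among the 6 tested members the highest r was 0.749, between *SLC30A1* and *MTF1*, followed by 0.687 between *MT2A* and *MT1E*. The lowest were -0.790 between *MT1E* and *MTF1*, -0.771 between *MT2A* and *SLC30A1*, and -0.713 between *MT1E* and *SLC30A1*.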

How the data were processed

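RNA-seq of 12 HLE libraries was analysed. The authors mapped reads to hg19 with STAR, kept unique hits, assigned them with QuasR to the exons of RefSeq mRNAs and deposited the result as CPM, reads per 1000000 reads on genes. Whether the counting used the strand is not given in the sources used here. Whole reads were recovered, since 100% of the CPM in every library came out as multiples of 1 read (tolerance 0.001 read). No sample column was left unmapped.

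From the deposited CPM, log2(CPM + 0.5) was fitted with limma 3.58.1 (trend, R 4.3.3), all 12 libraries in 1 fit with 1 coefficient per group, for the 13515 genes reaching 1 CPM in 2 or more libraries. Tests were two-sided with Benjamini-Hochberg adjustment. Alternatives were pseudocounts, filters, TMM and quantile scaling, the replicate number as a block, only the groups compared, other thresholds, each library left out, and edgeR 4.0.16 and DESeq2 1.42.0 on the recovered reads. The fit was tested on simulated reads. No set test was run.

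The members and lists were chosen with earlier results of these data known. Named were all members, the siRNA targets, up to 4 called genes of each other list with the largest change against siCtrl or DMSO, and the 3 genes closest to each of 5 members. Genes outside this rule are marked. Counting precision follows from 41408348 to 53619732 reads per library. Positions came from GENCODE (GRCh37) and promoters from RefSeq (GRCh38.p14). Figures were drawn with Python 3.11.15 and matplotlib 3.10.9.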

Additional observations from a re-analysis of the deposited data

Results flagged for a closer look

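The Srf effect differed between transfections, by a test of the difference itself, in 6 cases. The effect in siATF4 cells minus that in siCtrl cells was -0.69 on the log2 scale for *MT2A*, -0.68 for *MT1X*, -0.61 for *MT1F*, -0.41 for *MT1E* and -0.24 for *MTF1*. In siY/T cells the difference for *MT2A* was 0.38. These are the calls at an adjusted p under 0.05 (limma), and *MT1F* in particular rests on 24 to 125 reads per library and is given as a description only. Those of *MT1F* and *MTF1*, and that of *MT2A* in siY/T cells, were lost with no filter and without single libraries. In the comparison with siATF4 the value for *MT2A* includes its high level in siATF4 DMSO cells, since the same number is also the siATF4 effect with Srf (0.09) less that in DMSO (0.78).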

How the results depend on the processing

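Of 1573 alternative values of the 66 log2 fold changes of the tested genes, 1499 kept their side of the threshold, 47 lost and 15 gained a call. The other 12 turned sign with a move of more than 1 SE of the main fit, none of these past the threshold. A turn of sign within 1 SE and without a call was counted among the 1499. Requiring a log2 fold change of 1 left 0 genes called with siY/T and siATF4 in DMSO and with Srf, for Srf in siY/T cells, for siATF4 against siY/T with Srf and for both differences of effects. A filter at 5 CPM removed *MT1F* and left 0 calls with siATF4 under Srf, for Srf in siCtrl and for Srf in siY/T cells, and 1 for siATF4 against siY/T with Srf. Quantile normalization gave 0 calls with siATF4 under Srf and for Srf in siY/T cells and 1 for siATF4 against siY/T with Srf, and a pseudocount of 1 gave 0 and 1 for Srf in siY/T cells and for siATF4 against siY/T with Srf. For Srf in siATF4 cells a pseudocount of 0.1 and edgeR each gave 2. The difference of effects with siY/T gave 0 without a filter and 2 by unadjusted p, and that with siATF4 gave 3 without a filter, with quantile normalization and with DESeq2. Apart from the construction of a stricter filter or threshold, the cause was not tested.

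Leaving out 1 library at a time, with a lone library taken to vary like the other groups, gave 0 to 1 calls for Srf in siY/T, 1 to 2 for Srf in siATF4 cells, 2 to 3 for siATF4 against siY/T in DMSO and with Srf, 0 to 3 for the difference with siY/T and 3 to 5 for that with siATF4. With quantile normalization signs turned for *MT1F* and *MT1X* with siY/T in DMSO (-0.0422 and -0.0476), for *MT1F* with siATF4 in DMSO (0.00259) and against siY/T (0.0448), and for *MT1X* against siY/T with Srf (0.101). With libraries left out, values crossed 0 for *MT1F* (-0.0448 to 0.347) and *MT1X* (-0.0193 to 0.190) with siY/T in DMSO, for *MT1E* (-0.0554 to 0.112) and *MT2A* (-0.0306 to 0.207) with siATF4 under Srf, for *MT1E* with Srf in siATF4 cells (-0.0652 to 0.103), for *MTF1* with Srf in siY/T cells (-0.110 to 0.0455) and for *MT1E* in the difference with siY/T (-0.117 to 0.0815). Turns of sign within 1 SE of the main fit and without a call are not listed here.

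The replicate numbers did not pair the libraries. Deviations of same-numbered libraries correlated between -0.28 and 0.19 over 15 pairs of groups. With the number as a block the count of members called was the same in 11 of 11 comparisons, for example 2 with siY/T in DMSO and 5 for the difference with siATF4. Over all genes tested the block lowered the calls of the difference of effects from 2978 to 2814 with siY/T and from 5553 to 5456 with siATF4. Those of the pairwise comparisons stayed nearly the same. Depth limits *MT1F* to 24 to 125 reads and leaves *MT1G* and *MT1M* unjudged.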
